A study of Mus musculus with 12 samples.

Results

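RNA from the basal forebrain was compared with RNA from the cerebral cortex of the same 3 control mice, on 6 of the 12 arrays of the series. Members were chosen by their labels alone: the 3 arrays labelled Con Basal Forebrain and the 3 labelled Con CORTEX, joined by the mouse code that each title carries. The control (Con) mice carried no Cre, 1 working copy of Psen2 (PS2+/-) and loxP sites around both alleles of a further gene that is not reported here, so they were not wild type. The remaining 6 arrays hold the same 2 regions of 3 double knockout mice (DKO, ChatCre and PS2-/-), in which the Chat-driven Cre deletes the loxP-flanked gene in cells that have expressed Chat and both Psen2 alleles are mutant in every cell. All mice were labelled male and 2 months old, were killed by cervical dislocation, and had both tissues dissected and snap-frozen. The labels name no treatment, and no allele besides these is given. Each array read Cy3-labelled RNA of 1 region of 1 mouse on an Agilent SurePrint G3 Mouse GE v2 chip, so the 3 mice are biological replicates.

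The basal forebrain lies under the striatum and in front of the hypothalamus, and holds the cholinergic neurons of the medial septum, diagonal band, substantia innominata and nucleus basalis, which send acetylcholine to the cortex and hippocampus. These cells are mixed with GABAergic and glutamatergic projection neurons, and most forebrain GABAergic and cholinergic neurons descend from the embryonic ventral telencephalon. The cortex comes from the dorsal telencephalon, or pallium, whose progenitors make the glutamatergic pyramidal neurons of its layers, while its interneurons migrate in from the ventral side. Cortical neurons receive the acetylcholine through muscarinic and nicotinic receptors, and supply neurotrophins that the cholinergic axons take up.

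Values are log2 intensities minus the 75th percentile of the array, so 0 is that percentile, and every difference is basal forebrain minus cortex on the log2 scale. A gene passed when its adjusted p was under 0.05 in a limma fit that paired the regions by mouse, with Benjamini-Hochberg adjustment over all 26410 genes tested. Between 71.1% and 75% of probes were well above background on the 6 arrays. Arrays of 1 region correlated at 0.985 to 0.993 in basal forebrain and at 0.995 to 0.997 in cortex, against 0.956 to 0.975 between regions. Of the 26410 genes, 14743 passed (55.8%), 5853 of them higher in basal forebrain (22.2%) and 8890 lower (33.7%). At least a 2-fold difference was passed by 1800 genes that were higher (6.82%) and 2680 that were lower (10.1%), and the median difference over all genes tested was -0.09. With normexp background correction 1642 genes passed with at least a 2-fold difference, 665 higher and 977 lower. Without mouse 1, 8780 genes passed. The 3 arrays of one region did not overlap those of the other for 16327 genes (61.8%). More than 1 gene in 2 therefore passed, and the count of any gene group is read against these shares.

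All 3 Con basal forebrain arrays lay on slide 1 and all 3 Con cortex arrays on slide 2, so region and slide cannot be told apart in the control mice alone. DKO mice 1 and 2 had both regions on slide 1, and their differences are given as a comparison within a slide. Of the 14743 genes passing in Con mice, 5809 passed the same way in those DKO mice (39.4%, and 76.0% of the 7648 genes that passed there, which are 29.5% of 25936 tested), and 1402 had the opposite sign in both. Of the 4480 genes with at least a 2-fold difference, 2557 passed the same way (57.1%), against 31.7% of the 10263 passing genes under 2-fold. A fit of all 12 arrays with slide as a block passed 2891 genes (10.9%), 2674 of them the same way as in the paired fit. Its slide term rests on the cortex of DKO mouse 3, on slide 2, against that of DKO mice 1 and 2, on slide 1. Slide and mouse cannot be told apart there. The fit has no mouse term and so drops the pairing, and a gene that did not pass in it need not differ by slide. Principal components of the 12 arrays were also computed. On the second (11.7% of variance) the cortex of DKO mice 1 and 2, on slide 1, lay at 52.3 and 59.4. Cortex arrays on slide 2, DKO mouse 3 among them, lay between -30.8 and -17.5, and basal forebrain arrays between -16.8 and 13.4. Values for DKO mice 1 and 2 come from mice with the PS2-/- genotype and the Chat-driven deletion, so the within-slide comparison is not one of control mice.

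**Figure D1:**
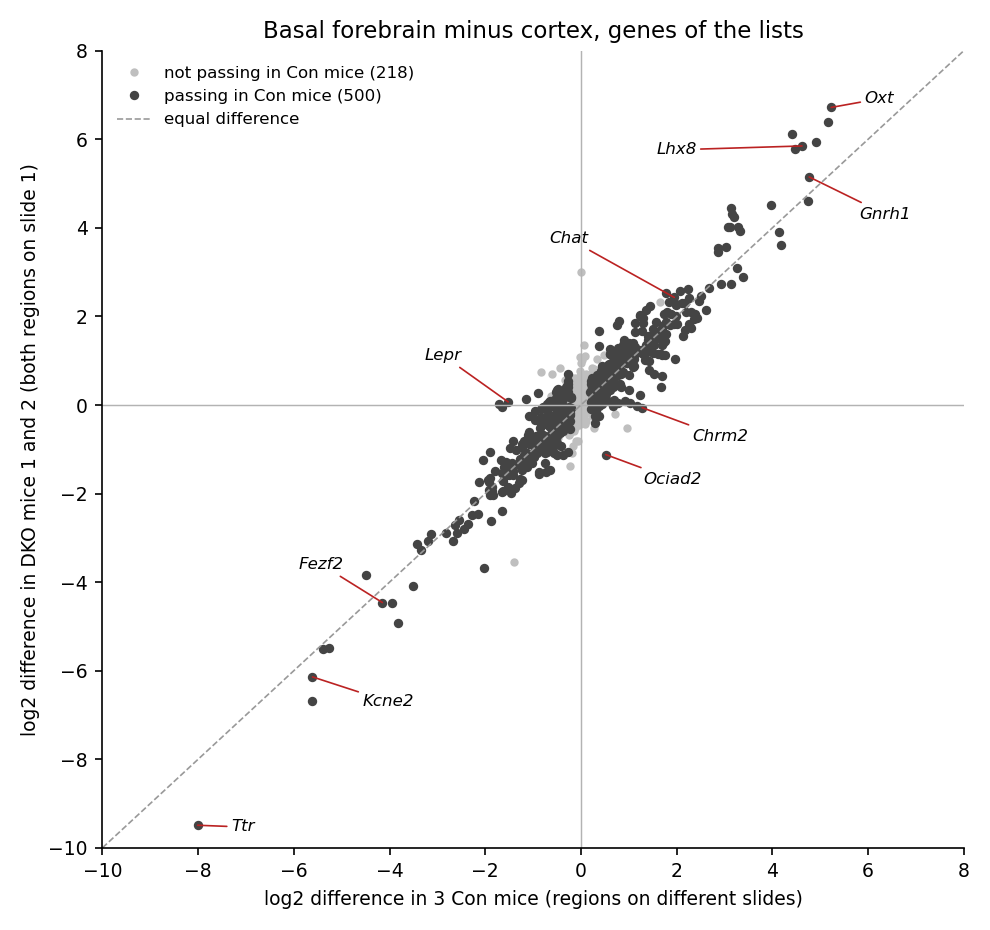
Basal forebrain minus cortex (log2) of 718 genes of the 41 gene lists, in the 3 Con mice (x axis, regions on different slides) and in DKO mice 1 and 2 (y axis, mean, both regions on slide 1). Each point is a gene, dark where it passed in Con mice (500 genes) and light where it did not (218), the dashed line marks equal differences, and 48 of the passing genes, 5 of those with at least a 2-fold difference, have opposite signs on the 2 axes.

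Genes were read in 41 lists of 763 genes, chosen for the cell types and pathways of the 2 regions with earlier results of these data known. The proximal promoters of 6 genes with differences described in the paragraphs after them are shown first. They are 3 genes of acetylcholine supply that were higher in basal forebrain and 2 genes of cortical neurons that were lower. The last is Fos, an immediate early gene that was lower with overlapping groups. Each is the 250 bases before the annotated start, 5′ to 3′ on the gene's own strand, from RefSeq on GRCm38.p6. Capitals mark TGACG or its reverse complement CGTCA, the core of the cAMP response element, and CAGATG or its reverse complement CATCTG, an E-box bound by neuronal bHLH factors.
Chat, chr14:32465910-32466159, minus strand: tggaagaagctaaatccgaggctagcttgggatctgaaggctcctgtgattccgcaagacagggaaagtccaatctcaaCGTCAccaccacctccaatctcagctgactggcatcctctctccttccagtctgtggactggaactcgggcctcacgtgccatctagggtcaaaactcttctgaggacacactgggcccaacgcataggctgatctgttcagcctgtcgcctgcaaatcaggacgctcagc
Slc18a3, chr14:32464851-32465100, minus strand: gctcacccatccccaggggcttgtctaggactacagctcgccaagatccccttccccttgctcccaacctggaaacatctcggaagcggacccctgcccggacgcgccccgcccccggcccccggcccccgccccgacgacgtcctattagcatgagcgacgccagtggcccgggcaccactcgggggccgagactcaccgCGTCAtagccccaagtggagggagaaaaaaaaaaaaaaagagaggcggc
Slc5a7, chr17:54299035-54299284, minus strand: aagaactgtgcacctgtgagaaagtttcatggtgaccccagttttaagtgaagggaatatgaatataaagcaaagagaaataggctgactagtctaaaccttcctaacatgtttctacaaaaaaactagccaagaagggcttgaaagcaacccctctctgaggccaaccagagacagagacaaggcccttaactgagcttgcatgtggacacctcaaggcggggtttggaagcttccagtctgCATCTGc
Neurod2, chr11:98329646-98329895, minus strand: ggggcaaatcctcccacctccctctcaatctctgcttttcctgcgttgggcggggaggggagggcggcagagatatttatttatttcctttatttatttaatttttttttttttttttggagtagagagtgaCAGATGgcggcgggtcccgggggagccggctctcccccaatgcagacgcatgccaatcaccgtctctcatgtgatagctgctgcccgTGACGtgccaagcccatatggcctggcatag
Cck, chr9:121495695-121495944, minus strand: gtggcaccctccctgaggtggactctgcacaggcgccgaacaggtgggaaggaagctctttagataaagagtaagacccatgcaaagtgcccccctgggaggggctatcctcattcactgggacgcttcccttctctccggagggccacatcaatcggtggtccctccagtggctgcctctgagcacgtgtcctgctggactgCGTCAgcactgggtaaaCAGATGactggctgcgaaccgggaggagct
Fos, chr12:85473640-85473889, plus strand: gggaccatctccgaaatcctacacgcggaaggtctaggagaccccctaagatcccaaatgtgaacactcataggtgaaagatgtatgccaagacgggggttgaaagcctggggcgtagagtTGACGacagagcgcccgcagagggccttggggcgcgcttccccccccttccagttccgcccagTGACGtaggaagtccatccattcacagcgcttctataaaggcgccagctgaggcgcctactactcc
The starts of Chat and Slc18a3 are 1059 bases apart on the same strand, since the vesicular transporter gene lies inside the Chat locus. The array probes read other places, such as chr14:33221421-33221480 in mm9 for Chat, chr3:153969377-153969436 for Lhx8 and chr15:74499597-74499656 for Arc, and the exon or UTR that a probe meets was not annotated here. TGACG, on either strand, stood in 17.8% of all 32851 promoter windows in the table and in 22.6% of the windows of tested genes. It was in 14.3% of the windows of genes at least 2-fold higher in basal forebrain and in 14.5% of those at least 2-fold lower. CAGATG, on either strand, was in 14.4% of all windows and in 11.7% of the windows of tested genes. It was in 16.8% of those 2-fold higher and in 15.6% of those 2-fold lower. TGACG holds a CpG, and the median CpG count was 12 for windows of tested genes, 7 for those 2-fold higher and 5 for those 2-fold lower. What part this has in the shares was not tested. The motifs are letters in a window and were not measured as bound sites.

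Genes of acetylcholine supply were higher in basal forebrain. Of 10 measured members of the list, 8 passed as higher and 0 as lower, with a median difference of 0.90 against -0.09 over all genes. Chat, which makes acetylcholine, read 0.33, 1.00 and -0.30 in basal forebrain of mice 1, 2 and 3 and -1.55, -1.34 and -1.95 in cortex. The regions did not overlap, and Chat was higher by 1.95 (SE 0.14, 3.87-fold, n = 3 mice, limma adjusted p = 0.00018). Slc18a3, the transporter that loads acetylcholine into vesicles, read 1.24, 1.42 and 1.31 against -1.72, -1.64 and -1.88, and was 8.37-fold higher (3.07, SE 0.08, limma adjusted p = 1.64e-05). Slc5a7, the choline transporter of cholinergic terminals, read 1.40, 1.59 and 1.37 against -1.61, -1.57 and -1.84, a difference of 3.12 (SE 0.08, limma adjusted p = 1.53e-05). For both transporters the arrays of each region lay within 0.3 of one another, while Chat varied more between mice. Ache, which breaks acetylcholine down, read 1.47, 1.40 and 1.65 against -0.29, -0.19 and -0.10 and was higher by 1.70 (SE 0.07). Prima1, which anchors Ache in the membrane, was higher by 1.08 and Bche by 0.71. Bche passed no longer with slide as a block (0.62, adjusted p = 0.3). Chka and Acly, which serve choline phosphorylation and acetyl-CoA supply in all cells, were higher by 0.33 and 0.24, and Chka passed neither with slide as a block nor in DKO mice 1 and 2. Pcyt1a (0.13) and Slc44a1 (0.16) did not pass. In DKO mice 1 and 2, on 1 slide, Chat differed by 2.25 and 2.61, Slc18a3 by 4.38 and 3.65 and Slc5a7 by 4.36 and 3.66, and 7 of the 8 genes passed the same way.

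Transcription factors and receptors that mark cholinergic neurons were higher by more. Of 10 such genes 9 passed as higher, and the median was 3.14. Lhx8, the LIM factor needed for the cholinergic fate, read 2.33, 2.41 and 2.20 in basal forebrain and -2.33, -2.22 and -2.38 in cortex, which is 24.6-fold higher (4.62, SE 0.07, limma adjusted p = 7.13e-06). No cortex array came near a basal forebrain array. Isl1, its partner, read 0.51, 0.77 and 0.43 against -2.73, -2.33 and -2.80 and was higher by 3.19. Nkx2-1, the factor of the medial ganglionic eminence, read -0.97, -0.85 and -1.14 against -4.05, -3.93 and -4.37 (3.13), though another probe gave -0.50. Ngfr, the p75 receptor found on adult basal forebrain cholinergic neurons, read 1.56, 1.38 and 1.40 against -1.71, -1.81 and -1.61, and was higher by 3.15 (SE 0.08, limma adjusted p = 1.64e-05). The arrays of each region lay within 0.25 of one another for Ngfr, and the regions did not overlap. Ecel1 (2.86), Gbx1 (0.90) and Zic4 (1.94) were also higher. Gal, a peptide made by part of these neurons, read 2.78, 0.89 and 2.80 against -1.30, -1.08 and -0.99 and was higher by 3.28 (SE 0.37, limma adjusted p = 0.000876). Lhx6, shared by cortical interneurons of the same origin, read 3.63, 4.25 and 3.96 against 4.21, 4.26 and 4.25 and did not pass (-0.29, limma adjusted p = 0.059). All 9 passing genes passed the same way in DKO mice 1 and 2 and with slide as a block. The second Lhx8 probe gave 0.67, the 3 Chat probes ranged from 0.15 to 1.95 and the 4 Zic4 probes from -0.53 to 1.94. All 10 genes were well above background on every basal forebrain array, and on every cortex array too.

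**Figure D2:**
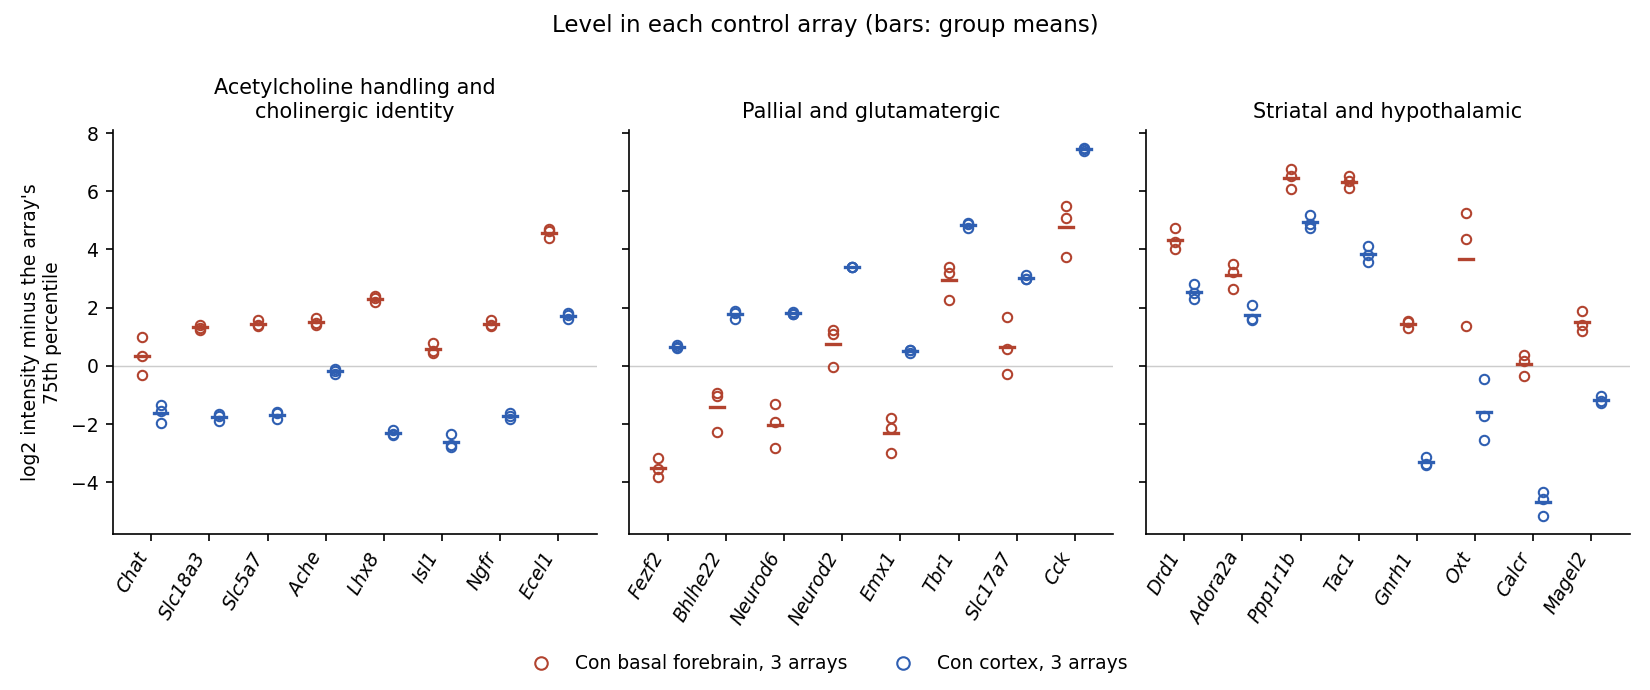
Log2 intensity minus the array's 75th percentile of 24 genes on the 6 Con arrays, in 3 panels of 8 genes: genes of cholinergic neurons, genes of cortical glutamatergic neurons and genes of striatal and hypothalamic neurons. Points are single mice (n = 3 for each region) and bars are group means. Every cholinergic gene lies higher in basal forebrain in all 3 mice and every cortical gene lies lower, with mouse 2 below the other 2 mice for all 8 cortical genes in the basal forebrain arrays.

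Neurotrophin ligands and receptors went in different directions. Of 12 genes measured 5 were higher and 6 lower, with a median of -0.13, beside 22.2% and 33.7% of all genes tested. Among the receptors, Ngfr was higher by 3.15, and Ntrk2 (0.54) and Ntrk3 (0.30) were higher by less. Among the ligands, Bdnf read -0.39, -1.97 and -0.14 in basal forebrain and 1.1, 0.88 and 1.27 in cortex, a difference of -1.92 (SE 0.27, limma adjusted p = 0.00187). Ntf3 (-1.23) and Ntf5 (-2.03), further ligands of the Trk receptors, were lower, and Ntf5 was well above background on 1 of 3 basal forebrain arrays. The second Ntrk2 probe gave -0.11. Sort1, a co-receptor of the proneurotrophins, was lower (-0.51). With slide as a block none of Bdnf, Ntf3, Ntf5, Ntrk2 and Ntrk3 passed, their differences ranging from -2.03 (Ntf5) to 0.42 (Ntrk2) with -0.21 for Ntrk3.

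Transcription factors split by embryonic origin. Of 38 measured factors of the ventral telencephalon and diencephalon 29 were higher and 1 was lower (median 1.27), and 27 of the 29 passed the same way in DKO mice 1 and 2. Six3 was higher by 3.39, Zic1 by 2.39, Pbx3 by 2.29, Gsx2 by 2.06 and Dlx6 by 1.73. Pbx3, a partner of Hox and Meis factors, read 2.91, 2.98 and 3.21 against 0.71, 0.79 and 0.75. Ikzf1 was the lower gene (-0.66, but -0.08 and 0.23 in DKO mice 1 and 2), and its probes ranged from -0.66 to 0.68. Otp, which marks hypothalamic neuroendocrine cells, reached 0.36 in mouse 1 but -4.07 in mouse 2 of the basal forebrain and did not pass (1.66, limma adjusted p = 0.0862). Of 28 pallial factors, 20 were lower and 3 higher (median -1.02), and all 20 passed the same way in DKO mice 1 and 2. Fezf2, which specifies subcerebral projection neurons, read -3.53, -3.81 and -3.17 in basal forebrain and 0.60, 0.64 and 0.71 in cortex (-4.15, SE 0.13, limma adjusted p = 3.39e-05). Its cortex arrays lay within 0.2 of one another, while mouse 2 was lowest in basal forebrain.

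Neurod6 read -1.94, -2.82 and -1.32 against 1.86, 1.77 and 1.77, Emx1 read -2.15, -3.01 and -1.78 against 0.53, 0.54 and 0.44, and Neurod2 read 1.1, -0.04 and 1.23 against 3.39, 3.38 and 3.40. These are bHLH and homeobox factors of cortical excitatory neurons, and in each the groups were more than 2 apart. Bhlhe22 (-3.19), Nfix (-1.91), Tbr1 (-1.89), Mef2c (-1.57) and Lhx2 (-1.44) were lower too. The 3 exceptions, named after their values were seen, were Eomes, Bcl11b (1.33) and Lmo3 (0.34). Eomes, which also marks olfactory bulb neurons, read -2.07, -5.36 and -2.27 in basal forebrain and -6.38, -6.84 and -5.86 in cortex, where it was well above background on 1 of 3 arrays (3.13). With slide as a block Eomes and Lmo3 did not pass, and the second Lmo3 probe gave -0.20. In basal forebrain mouse 2 had the lowest level of the 3 mice for 20 of the 28 factors.

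Most markers of cortical layers that passed were lower in basal forebrain, but not all of them. Of 16 markers of layers 2/3 and 4, 9 were lower and 3 higher (median -0.74). Lamp5 (-1.51), Rspo1 (-1.14), Kcnh5 (-1.05), Matn2 (-0.87) and Cux2 (-0.77) were lower. Wfs1 (1.76), Otof (1.02) and Inhba (0.32) were higher, and Rorb, the layer 4 factor, differed by -0.02. Of 25 markers of layers 5 and 6, 14 were lower and 5 higher (median -0.43). Bmp3 (-2.60), Cplx3 (-2.15), a complexin of subplate-derived cells, and Etv1 (-0.88) were lower. Osr1 (1.42), Crym (0.82), Syt6 (0.81), Foxp2 (0.80) and Sulf1 (0.37) were higher. Of the genes named here Rspo1, Inhba, Osr1, Crym and Sulf1 did not pass with slide as a block, and Cux2 and Etv1 did not when all probes of a gene were averaged. The second Etv1 probe gave 0.50, and the probes of Otof ranged from -0.56 to 1.98.

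Slc17a7, the vesicular glutamate transporter of cortical neurons, read 0.58, -0.27 and 1.67 in basal forebrain and 2.99, 2.97 and 3.11 in cortex (-2.36, SE 0.30, limma adjusted p = 0.00124). Of 14 genes of glutamate release and its receptors 6 were lower and 2 higher, with a median of -0.17. Camk2a (-1.42), Grin2a (-1.19) and Gria3 (-0.92) were lower, Gria1 was higher (0.47), and Slc17a6, the subcortical glutamate transporter, did not pass (0.24, limma adjusted p = 0.257). Gria1 did not pass with slide as a block or in DKO mice 1 and 2. The probes of Camk2a ranged from -1.42 to 0.52, of Grin2a from -1.26 to 0.99, of Gria3 from -0.92 to 0.44 and of Cux2 from -0.77 to 0.57.

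GABA genes were higher in basal forebrain while several cortical interneuron peptides were lower. Of 9 genes of GABA synthesis and transport 7 were higher and 1 lower (median 0.74). Gad2, the synaptic form of the enzyme that makes GABA, read 5.06, 5.20 and 4.98 against 3.63, 3.76 and 3.63 (1.41, SE 0.06, limma adjusted p = 6.4e-05). Slc32a1, which loads GABA into vesicles, read 6.90, 7.0 and 6.92 against 5.74, 5.88 and 5.77 (1.14). Gad1 read 5.47, 5.50 and 5.58 against 4.79, 4.79 and 4.74 (0.74). These 3 genes had non-overlapping groups with a spread under 0.25 in each region. The GABA transporters Slc6a13 (1.39) and Slc6a11 (1.14) were higher and Gabbr2, a GABA-B receptor subunit, was lower (-1.15). Slc6a13 did not pass with slide as a block.

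Of 13 GABA-A receptor subunits tested, of 15 in the list, 4 were higher and 6 lower (median -0.18). Gabrq, the theta subunit, read 0.90, -0.01 and 0.78 against -4.03, -3.49 and -3.36 (4.18, limma adjusted p = 0.000115). The other higher subunits, Gabrg1, Gabrg3 and Gabra2, differed by 0.61, 0.59 and 0.58, and Gabra5, Gabra4 and Gabra3 were lower (-0.56, -0.51 and -0.46). The probes of Gabra2 ranged from -0.10 to 0.58. Of 20 interneuron markers 9 were lower and 6 higher (median -0.32). Cck read 5.08, 3.74 and 5.48 in basal forebrain against 7.45, 7.39 and 7.47 in cortex (-2.67, SE 0.29, limma adjusted p = 0.000742), and it is also made by pyramidal neurons. Pvalb, the calcium buffer of fast-spiking interneurons, read 2.96, 2.88 and 3.13 against 4.64, 4.38 and 4.68 (-1.57, limma adjusted p = 5.79e-05). Vip (-2.55), Cort (-1.87), Npy (-0.91) and Sst (-0.40) were lower, and Sncg (1.78) and Calb2 (1.75) were higher. Gabra4, Gabra3, Npy, Sst and Calb2 did not pass with slide as a block, nor Gabra3 and Sst in DKO mice 1 and 2.

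Genes of striatal medium spiny neurons were higher in the basal forebrain samples almost throughout the list. Of 22 genes 21 passed as higher and 0 as lower (median 1.53), all 21 passed the same way in DKO mice 1 and 2, and 18 did with slide as a block. Drd1, the dopamine receptor of the direct pathway, read 4.01, 4.72 and 4.27 against 2.49, 2.82 and 2.29 (1.80, SE 0.10, limma adjusted p = 9.62e-05). Adora2a, the adenosine receptor of the indirect pathway, read 2.63, 3.5 and 3.22 against 1.6, 2.08 and 1.57 (1.37). The 2 regions did not overlap for either receptor, and mouse 2 was highest in both regions. Pde10a (2.29), Rgs9 (2.18), Strip2 (2.17), Drd2 (1.99), Pdyn (1.72), Penk (1.56) and Ppp1r1b (1.53) were higher, and Foxp1, also a cortical gene, did not pass (0.02). The summed level of the list ran from 9.42 to 9.95 in basal forebrain and from 8.09 to 8.48 in cortex. Mouse 2 was highest for 22 of the 22 genes in basal forebrain and for 20 in cortex, and mouse 1 was lowest for 21 in basal forebrain. Medium spiny neurons fill the dorsal striatum and the nucleus accumbens, and the labels do not say where the tissue was cut. What part they have in the differences of other gene groups was not tested. In tissue pieces, fewer cells of a type and less RNA per cell cannot be told apart.

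Peptides of hypothalamic and preoptic neurons were among the largest differences toward basal forebrain. Of 36 neuropeptide genes 17 were higher and 11 lower (median 0.18). Gnrh1, the releasing hormone of the reproductive axis, whose neurons lie in the preoptic area and medial septum, read 1.30, 1.55 and 1.5 against -3.41, -3.15 and -3.39 (4.77, SE 0.09, limma adjusted p = 7.13e-06). Nts, neurotensin, read 3.86, 3.79 and 3.71 against -0.48, -0.35 and -0.22 (4.14, limma adjusted p = 1.03e-05). For both of these probes the mice agreed to within 0.3 in each region, but a second Gnrh1 probe above background differed by -1.63. Oxt, oxytocin, read 5.26, 1.36 and 4.37 against -2.54, -0.44 and -1.74 (5.23, SE 1.00, limma adjusted p = 0.00583), and with slide as a block its adjusted p was 0.099. Avp, vasopressin, read 1.05, -3.53 and -1.70 against -2.68, 0.25 and -1.76 and did not differ beyond its spread (0.01, SE 1.22, limma adjusted p = 0.997). For both pituitary hormones mouse 2 was lowest in basal forebrain and highest in cortex. Cartpt (2.62) and Trh (1.78) were higher and Grp, a peptide of cortical and other neurons, was lower (-3.35). Of the peptides that mark the lateral and arcuate hypothalamus, Pmch (0.77) and Pomc (0.26) were higher and Hcrt (-0.11) and Agrp (0.09) did not pass. Trh and Pmch did not pass with slide as a block.

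Of 25 tested genes of hypothalamus and preoptic area 18 were higher and 1 lower (median 1.70). Calcr, the calcitonin receptor, read 0.36, -0.34 and 0.18 against -5.16, -4.33 and -4.58 (4.75). Baiap3 (3.26), the bombesin-like receptor Brs3 (3.04), Magel2 (2.67) and Ahi1 (1.75) were higher. The lower gene was Lepr, the leptin receptor, which read -0.40, -0.32 and 0.32 against 1.37, 1.22 and 1.58 (-1.52), but differed by 0.26 and -0.12 in DKO mice 1 and 2, and whose probes ranged from -1.52 to 0.30. Of the 18 higher genes 17 passed the same way in DKO mice 1 and 2 and 10 with slide as a block. Mouse 1 was highest in basal forebrain for 17 of the 25 genes and mouse 2 lowest for 18. The order of the mice for hypothalamic genes thus differed from that for striatal genes. The homeobox genes Hmx3 (5.17) and Lhx5 (4.91) were well above background on all 3 basal forebrain arrays but on only 1 of 3 cortex arrays, so these differences rest on dim cortex values. Hmx2 was not well above background on any cortex array and was at least 6.39-fold higher, a bound set by the dimmest probes that were well above background there.

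Other neighbouring territories gave smaller medians. Of 14 septal genes 7 were higher and 2 lower (median 0.54), with Zic1 at 2.39 and Drd3 at 2.23. Of 14 thalamic genes 9 were higher and 3 lower (median 0.50). Gbx2, a thalamic and cholinergic factor, was higher by 4.42 with 2 of 3 cortex arrays well above background, Tnnt1 by 1.74, Tcf7l2 by 1.29 and Prkcd by 0.52, while Ramp3 was lower (-1.48). The probes of Tcf7l2 ranged from -0.29 to 1.40. Of 14 genes of globus pallidus and similar projection neurons 7 were higher and 4 lower, with a median of 0.06. Of 14 hippocampal genes 6 were higher and 5 lower, and their median of 0.30 became -0.38 in DKO mice 1 and 2 and -0.37 with slide as a block. Neurod1 (-2.27) and Lct (-2.05) were lower, and Fibcd1 (1.70), Pkp2 (1.02) and Ociad2 (0.52) were higher. Of 9 tested genes of monoamine neurons 4 were higher and 3 lower (median 0.54). Th, the rate-limiting enzyme of dopamine synthesis, read 2.70, 1.20 and 2.76 against -0.36, -0.09 and -0.17 (2.43, limma adjusted p = 0.00155). Slc6a3 (2.13) and Ddc (1.53) were higher. Tph2 and Fev, of serotonin neurons, were lower (-1.23 and -1.65), though Fev differed by 0.15 and -0.24 in DKO mice 1 and 2. Prkcd, Lct, Fibcd1, Pkp2, Ddc and Fev did not pass with slide as a block. Ociad2 was lower in both DKO mice 1 and 2 (-0.90 and -1.33) and with slide as a block (-0.78), and Pkp2 differed by -0.27 with the block.

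**Figure D3:**
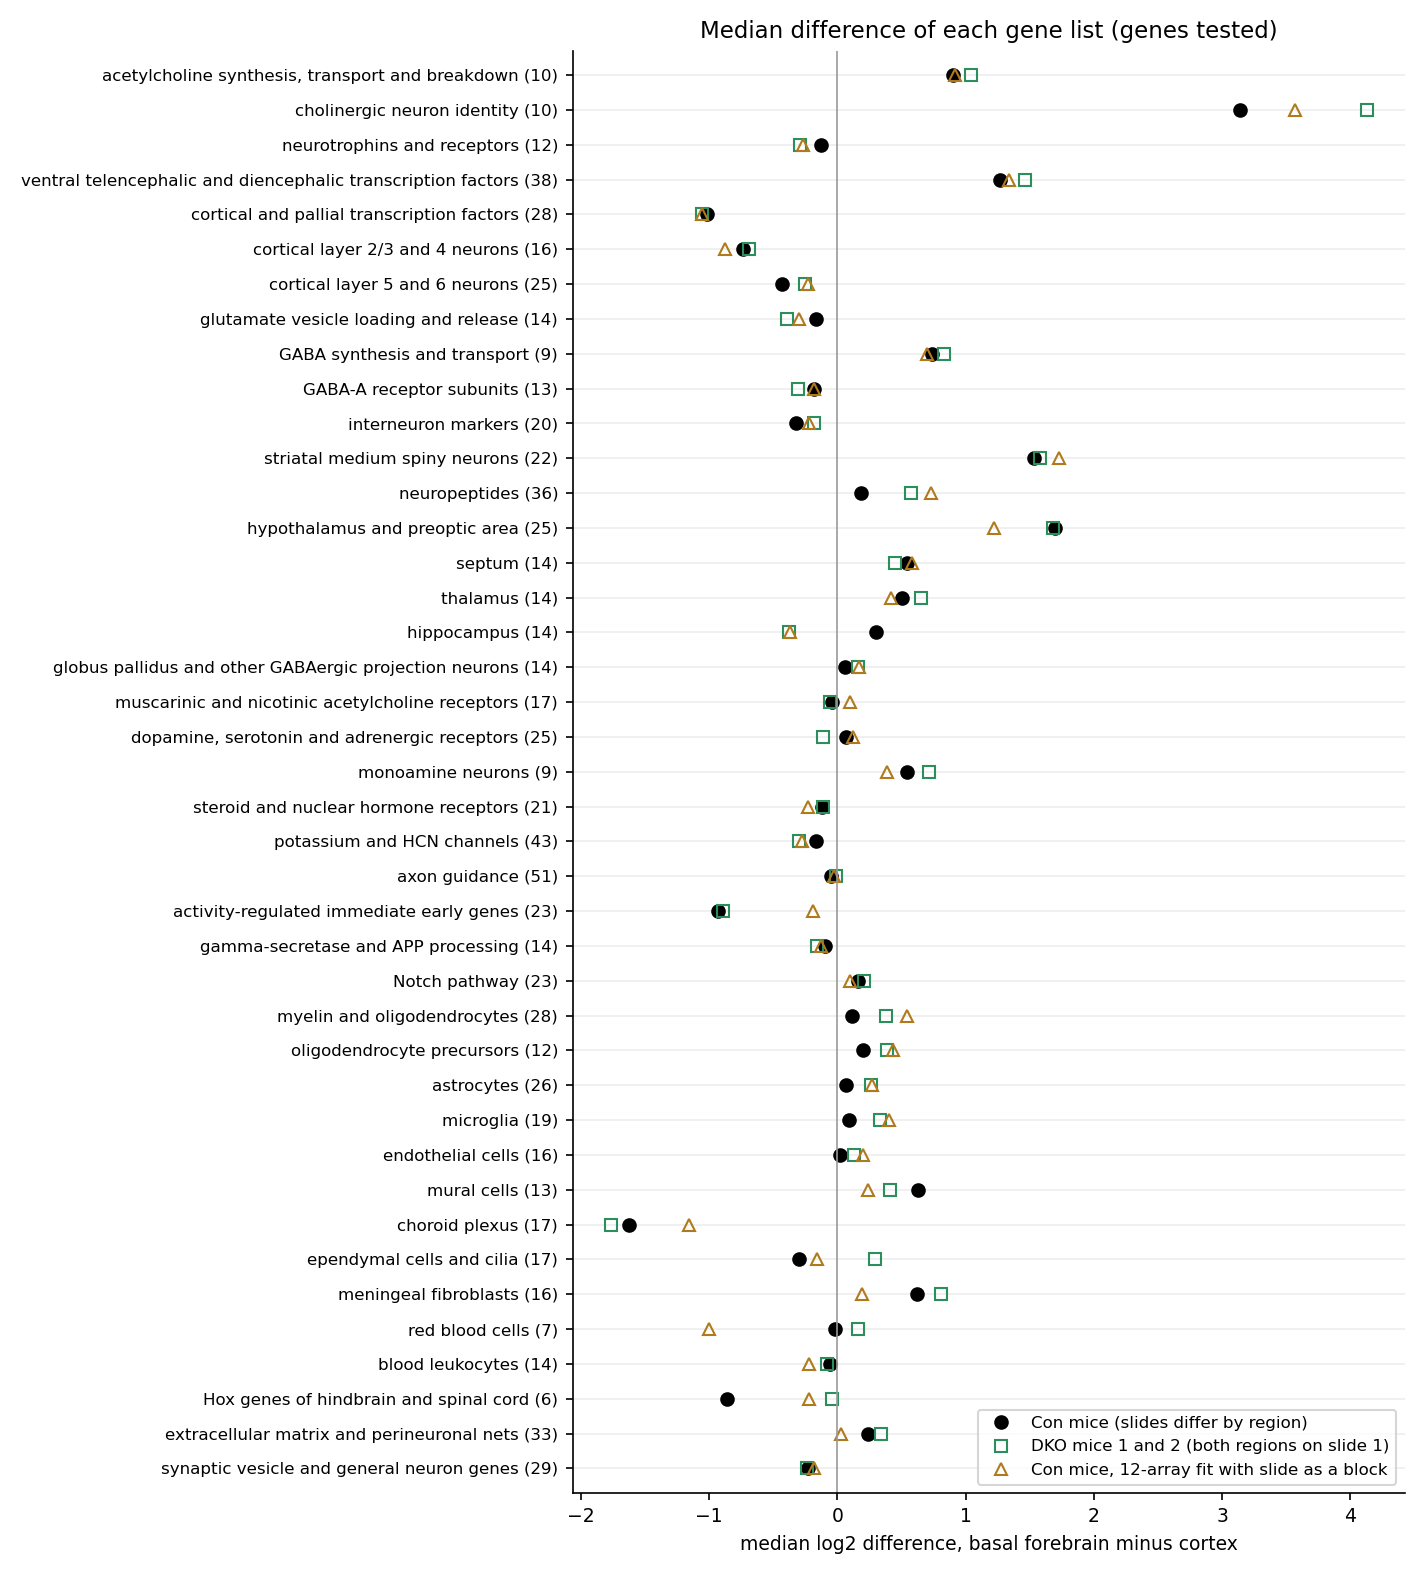
Median difference, basal forebrain minus cortex (log2), of the tested members of each of 41 gene lists. Black circles are the 3 Con mice (regions on different slides), green squares DKO mice 1 and 2 (both regions on slide 1) and orange triangles the fit of 12 arrays with slide as a block. The cholinergic identity list has the highest median (3.14) and the choroid plexus list the lowest (-1.63), and the immediate early gene list moves from -0.93 to -0.19 when slide is a block.

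Receptors for acetylcholine passed in both directions. Of 17 tested genes of 18 in the list 6 were higher and 7 lower, and the median was -0.04. Over all genes tested 22.2% were higher and 33.7% lower. Chrm3 read -1.76, -2.24 and -1.72 in basal forebrain and 0.03, 0.09 and -0.06 in cortex (-1.93). Chrm1, the main muscarinic receptor of pyramidal neurons, read 1.72, 1.53 and 1.64 against 2.60, 2.64 and 2.72 (-1.02, limma adjusted p = 0.000177). Both were lower on every basal forebrain array than on any cortex array, though the probes of Chrm1 ranged from -1.02 to 0.34. Chrna5, a subunit of deep-layer nicotinic receptors, was lower (-2.23). Chrnb3 was not well above background on any basal forebrain array and read -4.62, -4.40 and -4.45 in cortex, which is at least 4.94-fold lower in basal forebrain. Chrna2 (1.53) and Chrna10 (1.96) were higher. Chrm2, the autoreceptor of cholinergic terminals, read -1.64, -1.41 and -1.63 against -2.78, -3.06 and -2.68 (1.28), but differed by -0.21 and 0.10 in DKO mice 1 and 2 and by 0.10 with slide as a block. Chrm4 (0.22, limma adjusted p = 0.372) and Chrna7 (-0.27, limma adjusted p = 0.219) did not pass.

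Of 25 receptors for dopamine, serotonin and noradrenaline 10 were higher and 8 lower (median 0.07), beside 22.2% and 33.7% of all genes tested. Adra1d, an alpha-1 adrenergic receptor, read -3.56, -4.24 and -3.06 against 0.28, 0.16 and 0.52 (-3.94, SE 0.16, limma adjusted p = 5.48e-05) and Adrb1, a beta receptor, was lower too (-1.89, and -1.09 with slide as a block). Htr4 read -0.07, 0.41 and 0.26 against -3.06, -2.62 and -2.48 (2.92), and Htr1d (2.11) and Htr2c (1.46) were higher. The second Htr4 probe gave 0.07. Drd3, Drd2 and Drd1, given with the septal and striatal genes, were the higher dopamine receptors beside Drd5 (0.66), while Drd4 was lower (-0.81). Of 21 steroid and nuclear hormone receptors 7 were higher and 8 lower (median -0.12). Rarb (1.74) and Rxrg (1.56), receptors for retinoids, were higher, and Nr2f1 (-1.6), the thyroid hormone receptor Thrb (-1.28) and the progesterone receptor Pgr (-0.96) were lower.

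Of 43 potassium and HCN channel genes 20 were lower and 11 higher (median -0.17). The inward rectifier Kcnj5 (2.46) and the voltage-gated Kcna5 (2.25) were higher, and Kcnh7 (-2.13), the silent subunit Kcnv1 (-1.95) and Kcnj9 (-1.64) were lower. Of 51 axon guidance genes 18 were lower and 15 higher (median -0.05). Robo3 (-2.45), Ephb6 (-1.85) and Efna1 (-1.1) were lower, and Epha8 (1.47), Ntn1 (1.44) and Efnb3 (1.1) were higher. The second Ephb6 probe gave -0.05. At least a 2-fold difference was passed by 3 channel genes as higher and 8 as lower, and by 4 and 3 guidance genes. Over all genes tested these shares were 6.82% and 10.1%. Efna1 did not pass with slide as a block.

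Activity-regulated immediate early genes, which neurons switch on within minutes of firing, were lower in basal forebrain. Of 23 genes 22 passed as lower and 0 as higher (median -0.93), and 19 passed the same way in DKO mice 1 and 2 (median -0.89). With slide as a block 2 of the 22 passed, and the median was -0.19. That fit drops the pairing of the mice. Its slide term rests on the cortex of DKO mouse 3, so slide and mouse cannot be told apart there. Arc read 3.84, 2.87 and 4.20 in basal forebrain of mice 1, 2 and 3 and 4.94, 4.04 and 5.61 in cortex (-1.23, SE 0.08, limma adjusted p = 0.000162). With slide as a block Arc differed by -0.33 (SE 0.74, limma adjusted p = 0.84). The regions overlapped, while each mouse had less in its basal forebrain than in its cortex, and Arc did not pass when the mice were not paired. Egr3 read 2.53, 2.48 and 2.58 against 4.07, 3.80 and 4.09 (-1.45) and passed with slide as a block too (-1.09, adjusted p = 0.0054), as did Homer1 (-0.85, and -0.71 with the block, adjusted p = 0.012). Dusp5 (-1.55), Ier2 (-1.41), Dusp6 (-1.36), Egr1 (-1.18) and Dusp1 (-0.99) were lower. Fos, which heads the family, read 2.69, 1.17 and 2.74 against 3.08, 2.24 and 3.02 (-0.58), with overlapping groups, and Jun did not pass (-0.32). Mouse 2 was lowest for 21 of the 23 genes in basal forebrain and for 19 in cortex. The promoter table held 30 windows for 18 of the 23 symbols, and 56.7% of the windows contained TGACG or its reverse complement, against 22.6% for tested genes. By symbol, 14 of the 18 had a match, against 3884 of 14991 tested symbols, and Fos had matches at -129 and -66 from its start. The median CpG count was 16 for these windows against 12 for tested genes, and what part this has in the share was not tested.

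**Figure D4:**
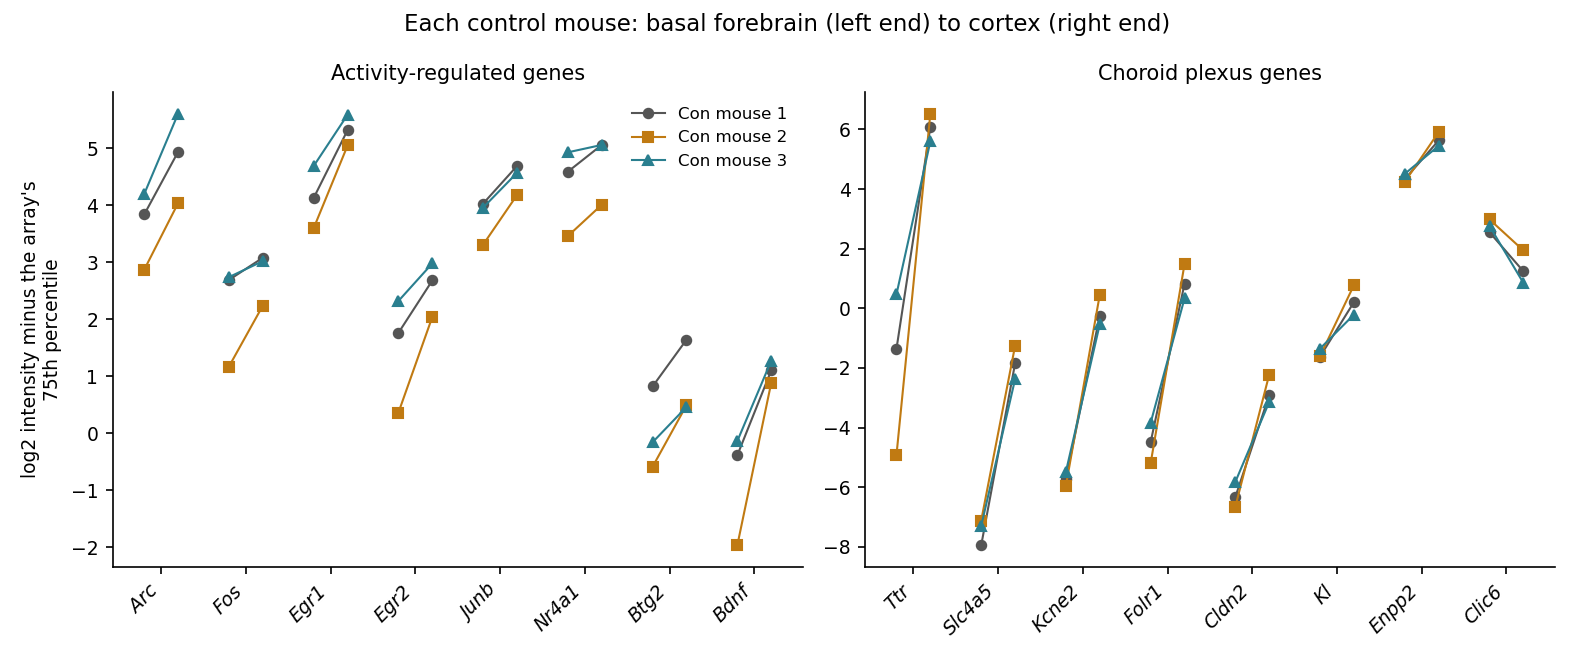
Log2 intensity minus the array's 75th percentile in basal forebrain and cortex of the same Con mouse, joined by a line for each of 3 mice, for 8 activity-regulated genes and 8 choroid plexus genes. Each mouse has less Arc in basal forebrain than in cortex although the arrays of the regions overlap, and 7 of the 8 choroid plexus genes lie lower in basal forebrain while Clic6 lies higher.

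Genes of the choroid plexus, the epithelium that makes cerebrospinal fluid, were lower in the basal forebrain samples. Of 17 genes 12 were lower and 2 higher (median -1.63), and all 14 passed the same way in DKO mice 1 and 2, while 7 did with slide as a block (1 higher, 6 lower). Ttr, the thyroid hormone carrier of this epithelium, read -1.36, -4.92 and 0.47 in basal forebrain and 6.08, 6.53 and 5.60 in cortex, a 257-fold difference (-8.01, SE 1.04, limma adjusted p = 0.00139). DKO mice 1 and 2 differed by -9.47 and -9.52. Slc4a5, a bicarbonate transporter, was not well above background on any basal forebrain array and read -1.85, -1.26 and -2.38 in cortex, at least 31.3-fold lower in basal forebrain. Folr1, the folate receptor, read -4.49, -5.20 and -3.84 against 0.82, 1.48 and 0.33 (-5.38), and Kcne2 read -5.71, -5.95 and -5.48 against -0.25, 0.46 and -0.53 (-5.61). The cortex arrays were thus high in every mouse for genes of an epithelium that is not part of the cortex. Cldn2 (-3.51), Kl (-1.79) and Enpp2 (-1.30) were lower, Aqp1 (-1.40), Otx2 (-0.46) and Slco1a5 (-0.42) did not pass, and Clic6 (1.42) and Prlr (0.78) were higher. The probes of Prlr ranged from -1.49 to 0.78. The summed level of the 17 genes ran from 4.91 to 5.15 in basal forebrain and from 6.67 to 7.42 in cortex, and mouse 2 was highest in cortex for 16 of them. The part of choroid plexus in other differences toward cortex was not tested.

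Genes of meningeal fibroblasts and mural cells leaned toward basal forebrain, while those of endothelial cells did not. Of 16 genes of meningeal fibroblasts 11 were higher and 1 lower (median 0.62), with Aldh1a2 at 1.5, Col1a2 at 1.40, Ogn at 1.11 and Dcn at 1.00, and Bgn lower (-0.89). Their summed level ran from 7.34 to 7.58 in basal forebrain and from 7.07 to 7.39 in cortex. Of 13 genes of mural cells, the smooth muscle cells and pericytes of vessels, 8 were higher and 1 lower (median 0.63). Cnn1 (1.85), Tagln (1.29) and Myh11 (1.24), contractile genes, and Vtn (0.63) were higher, though the probes of Myh11 ranged from -0.94 to 3.29. Of the meningeal genes 9 passed the same way in DKO mice 1 and 2 and 3 with slide as a block, and of the mural genes 6 and 0. Dcn and Bgn did not pass in DKO mice 1 and 2, and Col1a2 was the only fibroblast gene named here that passed with slide as a block. Of 16 endothelial genes 5 were higher and 5 lower (median 0.02), among them Vwf (0.92) and Ocln (-0.96). Of all genes tested 22.2% were higher and 33.7% lower. Red cell genes had 1 higher, Hbb-b1 (0.49), and 1 lower, Slc4a1 (-1.14), of 7 tested, and Hbb-bt read 3.84, 4.13 and 3.94 against 3.93, 3.76 and 3.51 with no pass. Vwf, Ocln, Hbb-b1 and Slc4a1 passed neither in DKO mice 1 and 2 nor with slide as a block, and Vwf (-0.27) and Hbb-b1 (-1.15) were negative with the block. The probes of Vwf ranged from -0.07 to 0.92. Of 14 tested leukocyte genes 3 were higher and 2 lower, with a median of -0.06.

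The medians of 4 lists of glial genes lay between 0.07 and 0.20, and when arrays were scaled by their median those of myelin (-0.01), astrocytes (-0.04) and microglia (-0.03) were negative. The counts of these lists stand beside 22.2% higher and 33.7% lower over all genes tested. Of 28 myelin genes 9 were higher and 10 lower (median 0.11), and 6 of the 19 passed the same way in DKO mice 1 and 2. Myrf (0.83), Sox10 (0.45), Olig1 (0.43) and Mbp (0.26) were higher, and Mog was lower (-0.26) but differed by 0.02 and 0.55 in DKO mice 1 and 2. Of 12 genes of oligodendrocyte precursors 7 were higher and 1 lower (median 0.20), with Lhfpl3 at 1.01 and Cspg4 at 0.84. Of 26 astrocyte genes 10 were higher and 5 lower (median 0.07). Agt, angiotensinogen, made by astrocytes of the subcortical brain, read 3.22, 2.61 and 3.00 against 0.93, 0.93 and 1.02 (1.98, limma adjusted p = 0.000109). Itih3 read 4.32, 3.96 and 4.16 against 1.86, 1.76 and 1.71 (2.37), and the glycine transporter Slc6a9 was higher (1.13). These astrocyte genes separated the regions fully, while the general markers Aqp4 (0.12) and Aldh1l1 (0.07) did not pass. Of 19 microglial genes 6 were lower and 3 higher (median 0.09), among them Olfml3 (-1.49), P2ry12 (-0.49) and Gpr34 (-0.47) as lower and Ctss (0.53) and C1qb (0.38) as higher. P2ry12 and Gpr34 had positive differences in DKO mice 1 and 2 on average (0.34 and 0.37) and with slide as a block (0.70 and 0.46). Ctss and C1qb passed in neither. Myrf, Sox10, Mbp and Cspg4 did not pass with slide as a block either, nor Mbp in DKO mice 1 and 2. Under scaling by the median of each array Sox10, Olig1 and C1qb did not pass. The probes of Mbp ranged from -1.33 to 0.38 and those of Olfml3 from -1.49 to 0.53.

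Genes of the extracellular matrix and of the synapse passed in both directions. At least a 2-fold difference was passed by 4 matrix genes as higher and 4 as lower, and by 2 and 2 synaptic genes. Over all genes tested these shares were 6.82% and 10.1%. Of 33 tested matrix genes 15 were higher and 9 lower (median 0.24), with Col11a1 at 2.26, Col6a1 at 1.67 and Sparc at 1.09, and with Thbs4 (-3.43), Col19a1 (-1.62) and the perineuronal net protein Hapln4 (-1.06) lower. Of 29 genes of synaptic vesicles and general neuronal function 14 were lower and 6 higher (median -0.23). Stx1a, the syntaxin of transmitter release, read 1.72, 1.05 and 2.01 against 3.46, 3.42 and 3.56 (-1.88). Sncb (-0.81) and Rbfox3 (-0.66) were lower, and Sv2c (2.01), a vesicle protein of striatal and basal neurons, and Sncg (1.78) were higher. Col6a1 passed neither in DKO mice 1 and 2 nor with slide as a block, Hapln4 did not with the block, and Rbfox3, whose probes ranged from -0.66 to 0.50, did not with all probes averaged.

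Psen2, a catalytic subunit of gamma-secretase that is mutant in DKO mice, did not pass between the regions of control mice. It read 0.39, 0.25 and 0.42 in basal forebrain and 0.42, 0.50 and 0.47 in cortex (-0.11, limma adjusted p = 0.269), and the groups met at 0.42. In DKO mice the same probe read -1.86, -1.44 and -1.25 in basal forebrain and -1.7, -1.59 and -1.67 in cortex, below every Con array but well above background on all 6. Whether the probe lies in the mutated part of the gene was not examined. Of 14 genes of gamma-secretase and APP processing 2 were higher and 4 lower (median -0.10), beside 22.2% and 33.7% of all genes tested. Adam10, the alpha-secretase of neurons, was lower (-0.83) and Adam17 was higher (0.50). The gamma-secretase subunits Ncstn (-0.59) and Aph1c (-0.47) were lower and Aph1b was higher (0.21). App differed by -0.73 with its chosen probe and by 1.11 with another, and its difference in DKO mice 1 and 2 had an adjusted p of 0.19. Of 23 genes of the Notch pathway, whose receptors are gamma-secretase substrates, 6 were higher and 2 lower (median 0.16), beside the same shares. Hes1 (-1.41) and Numbl (-0.63) were lower, and Heyl (1.07), Mfng (0.81), Notch4 (0.51) and Hes5 (0.50) were higher. With slide as a block Adam10 (-0.47), Numbl and Mfng passed and the other 9 passing genes named in these lists did not, with Notch4 at -0.01.

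Over all genes, the 15 largest fitted differences toward basal forebrain with a gene symbol included Oxt, Gnrh1, Calcr and Lhx8, which were well above background on all 6 arrays, beside Hmx3 and Lhx5. No order is read among genes that were not well above background in 1 region. Cckar (at least 19.0-fold), a cholecystokinin receptor, Krt25 (at least 6.67-fold), Hmx2 and Onecut3 (at least 4.57-fold) were not well above background on any cortex array. Dlk1, an imprinted Notch ligand-like protein, read 3.13, 2.94 and 3.04 against -1.40, -1.31 and -1.15 (4.33), and Pgr15l (4.29), Dgkk (4.19) and Dsg1c (4.19, well above background on 2 of 3 cortex arrays) completed the 15 with Gbx2. Toward cortex, Ttr, Slc4a5, Kcne2, Folr1, Hkdc1 (-5.22), Ccdc129 (-4.97), Glp2r (-4.91), Cldn22 (-4.59), Mylk3 (-4.52) and Myl4 were among the 15 largest. In basal forebrain Ccdc129 was well above background on 1 of 3 arrays, and Cldn22 and Mylk3 on 2 of 3. Myl4 read -0.57, -0.87 and -0.20 against 3.92, 4.0 and 3.81 (-4.45). Prr32 (at least 13.4-fold), Myhas (Gm12300 in the files, at least 10.4-fold), Adamts13 (at least 6.72-fold) and Chrnb3 were not well above background in basal forebrain. Among passing genes with a 2-fold difference, 523 were not well above background in the lower region. The calcium sensor Ncald (-1.58), the neuronal membrane glycoprotein Gpm6a (-1.04) and Npcd (-1.49) were also lower in basal forebrain.

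The same contrast in DKO mice, over all 3 mice, passed 8066 of 25736 genes (31.3%), 4169 as higher (16.2%) and 3897 as lower (15.1%), with 2493 (9.69%) and 1175 (4.57%) at least 2-fold apart. The region difference in Con mice was tested against that in DKO mice over 26773 genes, and limma passed 0 after adjustment, with 2371 at an unadjusted p under 0.05 (8.86%). Its variance trend followed the mean region difference, not the expression level, so genes with large region differences received large SEs. Dgkk differed by 4.34, 4.14 and 4.10 in Con mice and by 4.23, 4.10 and 4.30 in DKO mice, yet its SE was 2.19. For Lhx8 the SE was 7.2. This test could hardly call such genes, so the 0 does not show that the genotypes agree. The smallest p belonged to an unnamed transcript on chromosome 15, Kif14, Hfe2, Gm20555 and Ly6d. Without DKO mouse 3, whose regions lay on different slides, 994 genes passed. The 2 contrasts share no sample. Lhx8 differed by 6.53 and 5.18 in DKO mice 1 and 2. Of the 500 passing list genes in the plot of Con against DKO differences, 452 had the same sign in those mice. The lists were chosen with earlier results of these data known, so this count does not stand for all genes. Among plotted list genes that passed with at least a 2-fold difference, 5 of 216 had the opposite sign there. Over all genes it was 479 of the 4480.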

How the data were processed

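Each of 12 single-colour arrays measured 1 region of 1 mouse. Per the file headers and the submitters' processing notes, Agilent Feature Extraction 10.7.1.1 wrote a processed intensity per spot, background-subtracted and detrended but not scaled between arrays. The authors' deposited normalized log2 values, equal in their sorted values on all 12 arrays, served as an alternative, and their normalization method is not stated (not given in the sources used here).

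Control spots and spots marked as outliers by the scanner were left out (56568 of 56605 probes kept, 0 saturated, 37055 gene names, 43713 probes with a current RefSeq symbol). Log2 intensity minus the array's 75th percentile was averaged over spots. Each gene was read from the probe with the highest mean over 12 arrays and was tested if, by the scanner's call, it was well above background throughout 1 region of the 3 mice. Regions were compared with limma 3.58.1 (R 4.3.3, lmFit, eBayes with a trend, Benjamini-Hochberg), with the mouse as a block. The mouse codes in the titles give the pairing. Deviations from the group means correlated at 0.179, 0.257 and 0.323 within a mouse and at -0.254 to -0.014 between mice. On simulated data for this comparison, over 26410 genes, 49.3% of 2-fold, 80.6% of 4-fold and 86.4% of 8-fold changes were recovered. The simulation changed only a small part of the genes and held no slide effect, whereas 55.8% of genes passed in the data. The adjustment thus met a different share of changed genes, and these rates are not the sensitivity of the real comparison. The number of arrays, 3 for each region, limits the precision. Where no array of a group had a gene well above background, its fold is a lower bound, set by the dimmest probe above background on each such array or the gene's own signal.

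Members and lists were chosen with earlier results of these data known. Genes were named as members marked in the lists, the 15 largest differences each way with a symbol (3 unnamed transcripts passed over among the higher, 15 among the lower), up to 6 members of a list with the smallest p, the 5 smallest p for Con against DKO and the 5 brightest in each region. Other genes are list members named after their values were seen. Of 343 list genes with more than 1 probe above background, 106 had probes of opposite sign. The summed level of a list is the log2 of the sum of its members' scaled intensities. Promoters come from RefSeq tables on GRCm38.p6, matched by symbol (14991 of 26364 tested symbols). Some genes that these rules name are not reported here, though they stay in the counts and medians. Flag columns of the deposited table were left aside.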

Additional observations from a re-analysis of the deposited data

Results flagged for a closer look

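Among the genes named, 5 differed in the opposite direction in every Con mouse and every DKO mouse, and none passed the test of that difference after adjustment (limma, 26773 genes). Kif14, a mitotic kinesin, differed by -0.21, -0.18 and -0.40 in Con mice and by 1.01, 1.03 and 0.93 in DKO mice, which gives -1.25 between the genotypes (unadjusted p = 2.84e-05, adjusted p = 0.381). Hfe2, hemojuvelin, differed by -0.85, -1.32 and -0.99 against 0.65, 0.40 and 0.50 (-1.57, unadjusted p = 4.49e-05, adjusted p = 0.401). Gm20555 differed by -0.71, -0.54 and -0.82 against 0.54, 0.48 and 0.19 (-1.09, adjusted p = 0.546). Ociad2, of the hippocampal list, differed by 0.46, 0.47 and 0.65 against -0.90, -1.33 and -0.13 (1.31, unadjusted p = 0.0043, adjusted p = 0.546). An unnamed transcript probe at chr15:60656586-60685333 in mm9 differed by -0.10, -0.42 and -0.51 against 2.41, 2.15 and 1.99 (-2.53, unadjusted p = 5.69e-06, adjusted p = 0.152), and was not tested in Con mice alone, where neither region had it well above background on all 3 arrays. Kif14, Hfe2, Gm20555 and the transcript were named because they have some of the smallest p in this test, so their size describes that choice. Region and slide cannot be told apart in Con mice, and DKO mice 1 and 2 lie on 1 slide.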

How the results depend on the processing

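Region and slide cannot be told apart in Con mice, and 3 arrays a group leave 2 residual degrees of freedom for each gene. Against 14743 passing genes, 2891 passed with slide as a block, 2674 of them among the 14743 and in the same direction, and 4480 passed with at least a 2-fold difference required as well. That last count was 1642 with normexp background correction (665 higher, 977 lower) and 1465 with slide as a block. Leaving out each mouse gave 8780 to 14651, the lowest without mouse 1 (3472 higher, 5308 lower). In the count of passing genes the other alternatives stayed within 1.5 times, from 12647 without a variance trend to 17479 without the filter on dim probes, and the share of higher genes ran from 29.9% to 44.7% against 39.7%. Without pairing of the mice (no replicate block) 13499 genes passed in Con mice and 8812 against 8066 in DKO mice, and of 238 named passing genes 5 were lost, Arc among them. In DKO mice leaving out each mouse gave 3508 to 7648. The Con against DKO test, which could hardly call genes with large region differences, passed 0 genes except without DKO mouse 3. There 994 passed (61 with the Con difference higher and 933 lower). The cause was not tested for any of these.

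Slide as a block ended the call of 69 of the 238 named genes and reversed 14: Dcn -0.18, Gal3st1 0.27, Gm20555 0.08, Gpr34 0.46, Hbb-b1 -1.15, Hoxb3 0.12, Ly6c1 -0.27, Matn4 0.25, Notch4 -0.01, Ociad2 -0.78, P2ry12 0.70, Pkp2 -0.27, Tekt4 -0.18 and Vwf -0.27. In DKO mice 1 and 2, on 1 slide, 25 did not pass and 16 had the opposite sign: Aph1b -0.10, Chrm2 -0.06, Esam 0.06, Gal3st1 0.16, Gm20555 0.51, Gpr34 0.37, Hfe2 0.53, Hoxb3 0.10, Hydin 0.09, Ly6c1 -0.02, Matn4 0.17, Ociad2 -1.12, P2ry12 0.34, Plac8 -0.02, Slc4a1 0.13 and Spag16 0.02. Averaging all probes of a gene reversed App (0.19) and ended 5 calls. Each of the other settings, reversing none, ended the call of at most 16. Of the calls that held, 10 moved by over 1.5 times with slide as a block, 35 with normexp background correction and 36 with all probes averaged. Scaling by the array median shifted the median of all genes by -0.12 and changed the sign of 6 of 41 list medians, each a list with a small positive median.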

Other observations

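Cilia genes of the ependyma, which lines the ventricles, passed in few cases. Of 17 genes 3 were higher and 2 lower in basal forebrain (median -0.30, and 0.29 in DKO mice 1 and 2). Ak7, an adenylate kinase of cilia, was not well above background in cortex and at least 1.79-fold higher, Rarres2 differed by 0.59 and Tekt4 by 0.42, while Spag16 (-0.71) and Hydin (-0.60) were lower. For Ccdc153 basal forebrain read -0.37, -2.76 and -0.51 and cortex -0.67, -0.73 and -0.41, so mouse 2 alone was far lower in basal forebrain. Mouse 2 was the lowest of the 3 mice in basal forebrain for all 17 genes of the list, and for 3 of them in cortex. Tmem212 had the same order, with -1.37, -5.27 and -1.80 against -1.87, -1.90 and -2.13, and neither gene passed. With slide as a block none of the 5 passing genes passed.

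Most Hox genes, which pattern hindbrain and spinal cord, were not tested in either region, 24 of 30, since their probes were not well above background. Of the 6 tested, Hoxa4 (at least 2.18-fold), Hoxc8 (at least 1.83-fold), Hoxa9 (-1.08) and Hoxb3 (-0.64) were lower in basal forebrain, and none of these 4 passed with slide as a block.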
